A study of Mus musculus with 6 samples.

Results

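The 6 mouse genes for myeloid Fc receptors, the cell-surface proteins that bind the constant part of antibodies, were followed in 6 RNA sequencing libraries. They were taken by symbol (Fcgr1, Fcgr2b, Fcgr3, Fcgr4, Fcer1g and Fcgrt) and matched to Ensembl identifiers through the GENCODE vM21 annotation. All 6 were found among the 46078 genes of the count tables, and all 6 were among the 18097 genes that passed the low-count filter. One group of 3 libraries is labelled JMML (juvenile myelomonocytic leukemia, a childhood blood cancer with an excess of monocytic cells) and the other group of 3 is labelled WT, for wild type. By its title, the series concerns leukemia and sustained fetal blood formation in mice. The labels name no tissue, age, strain, altered gene, promoter or driver line, so what the JMML animals carry cannot be given here. Whether each replicate is an animal of its own is not stated either, and p-values then reflect only how these 6 samples vary.

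Totals lay between 47096464 and 108395459 counts, and every JMML library was deeper than every WT library. The sample identifiers of JMML replicates 1 and 2 end in the letter F and those of the other 4 libraries in M. The X-inactivation transcript Xist had 54449 and 49961 counts in the 2 libraries with F and at most 36 in the others, so sex and group are partly confounded. JMML replicate 3 is the only JMML library of the same sex as WT, and it shares an identifier prefix with WT replicate 3. Fits below that take the letter as a covariate, or keep only libraries with M, therefore draw the group difference from JMML replicate 3 alone. They are not separate checks, and they cannot tell sex from what is particular to that library. In these bulk samples fewer cells of a type and less RNA per cell cannot be told apart.

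The mouse receptors for immunoglobulin G come in 2 opposed kinds. Fcgr1 (high affinity), Fcgr3 (low affinity) and Fcgr4 are activating: they carry no long signalling tail of their own and pair with the chain encoded by Fcer1g. The tyrosine motif of that chain (ITAM) is phosphorylated by Src-family kinases and then binds the kinase Syk, which starts phagocytosis and cytokine release. Fcgr2b is the inhibitory member, carries an inhibitory tyrosine motif (ITIM) that recruits the lipid phosphatase Inpp5d, and is also the Fc receptor for immunoglobulin G of B cells. Fcgrt, the neonatal Fc receptor, works differently. It is built like an MHC class I heavy chain, pairs with B2m, and carries antibody across or back out of cells.

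The genes of Fcgr2b, Fcgr4, Fcgr3 and Fcer1g lie close together on chromosome 1 (GRCm38). In that order they span 170958617 to 170976547 on the minus strand, 171018920 to 171029761 on the plus strand, 171051174 to 171064935 on the minus strand and 171229572 to 171234365 on the minus strand. Fcgr1 lies on chromosome 3, 96282909 to 96293969, and Fcgrt on chromosome 7, 45092990 to 45103851, both on the minus strand. All 6 are protein-coding. Fcgr3 and Fcgr2b are similar in sequence: 9.58% of the 50-base stretches in Fcgr3 transcripts also occur in Fcgr2b transcripts, and 2.92% of those in Fcgr2b transcripts occur in Fcgr3. Fcgr1, Fcgr4, Fcer1g and Fcgrt shared no such stretch with any other annotated gene. Counting all other annotated genes, 6.95% of the 50-base stretches of Fcgr2b occurred elsewhere, in 146 genes with Fcgr3 among them. How reads that match several genes were counted is not given in the sources used here. Counts of Fcgr3 and Fcgr2b may therefore hold some reads of each other, and those of Fcgr2b some reads of further genes.

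Levels were compared between genes per kilobase of exon (RPKM, that is CPM, counts scaled to a common library size, divided by the length of the union of all exons). In WT, Fcer1g was highest at 122 ± 14.8 RPKM (SD, n = 3), followed by Fcgr3 at 53.6 ± 1.41 and Fcgrt at 18.04 ± 0.775. Fcgr2b at 7.38 ± 0.416 and Fcgr4 at 7.21 ± 0.522 overlapped, and Fcgr1 was lowest at 3.13 ± 0.636. In JMML the first 2 places were the same, with Fcer1g at 223 ± 19.4 and Fcgr3 at 96.1 ± 10.1 RPKM. The ranges of the other genes then ran into each other, Fcgrt from 16.95 to 26.5, Fcgr4 from 10.97 to 26.9, Fcgr1 from 7.40 to 21.9 and Fcgr2b from 11.5 to 16.2 RPKM. The exon union of Fcgr2b is 5790 bases long. With the median length of its coding transcripts (1520 bases), a choice made after the data were seen, Fcgr2b stood at 28.1 ± 1.59 in WT and 50.3 ± 9.79 in JMML, well above Fcgr1 and Fcgr4 in both groups, so its place in the order depends on the length used.

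All 3 activating receptors, their signalling chain and the inhibitory receptor were higher in JMML, and the transport receptor was not called. By the quasi-likelihood test of edgeR, adjusted over all genes by Benjamini-Hochberg, 5 of the 6 genes had an adjusted p under 0.05, all 5 higher in JMML. Over all genes tested 12.4% were called higher, 13.8% lower and 26.2% in either direction. Counts of called genes in each list below are to be read against these shares. All 5 were higher by 1.5-fold or more, which 9.13% of all genes were with a call. In the same 5 genes every JMML library lay above every WT library in CPM, which held for 22.9% of all genes (47.5% did not overlap in either direction). The fitted log2 fold change was 0.84 or more in each of the 5, against a median of −0.02 over all genes tested. Scaling by library totals alone moved the median over all genes by −0.18 on the log2 scale, and each of the 5 was still called, at log2 fold changes from 0.65 to 2.13.

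**Figure D1:**
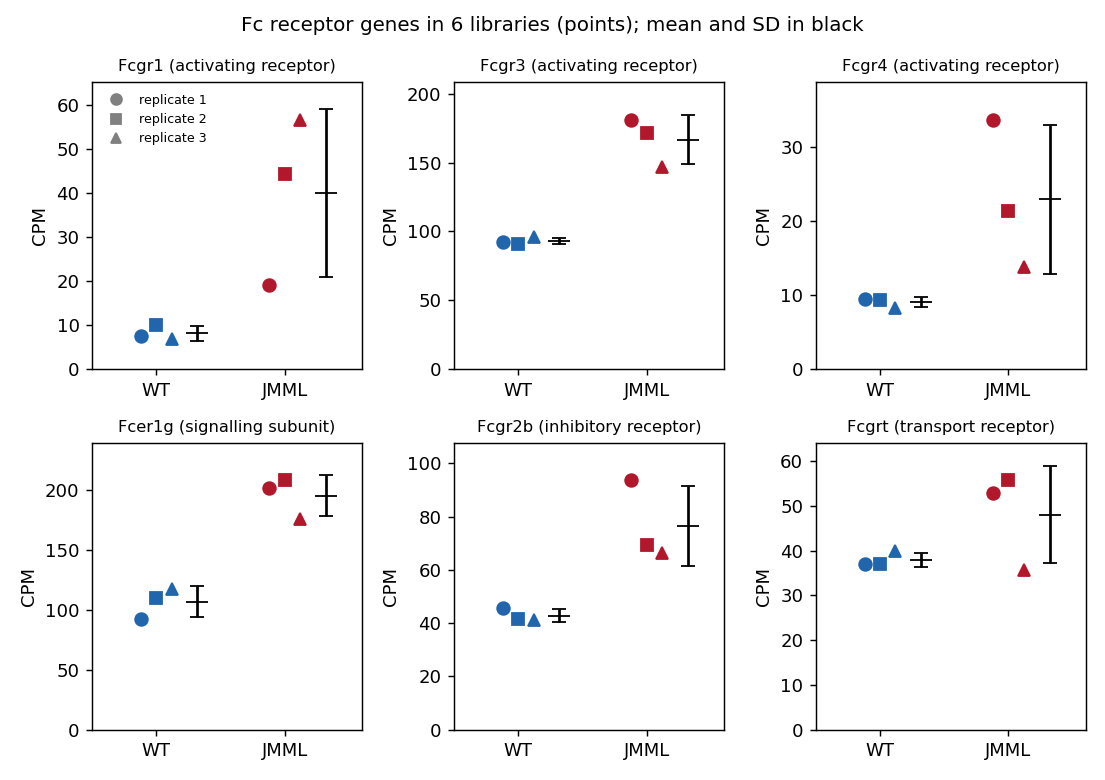
Level of each Fc receptor gene in CPM (vertical axis, linear, from 0) in 3 WT (blue) and 3 JMML (red) libraries, with mean and SD in black and marker shape for the replicate number. The JMML libraries lie above all WT libraries in every panel but that of Fcgrt, and Fcgr1 and Fcgr4 are the most spread out within JMML.

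Fcgr1, the high-affinity receptor, had the largest fold change of the 6 genes. Its level was 7.43, 9.96 and 6.88 CPM in WT replicates 1, 2 and 3 and 19.2, 44.3 and 56.7 CPM in JMML replicates 1, 2 and 3. All JMML values were above all WT values, but JMML replicate 1 stood well below the other JMML libraries. The log2 fold change was 2.31 ± 0.39 SE, a 4.95-fold difference (adjusted p = 0.00735), and it was called in all 17 other settings, between 2.00 and 2.85.

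Fcgr1 differed most within JMML, with a coefficient of variation of 47.7% against 20.3% in WT. A list of 15 interferon-induced genes varied over the same libraries. Its summed level was 269, 461 and 1047 CPM in JMML replicates 1, 2 and 3 and between 264 and 286 CPM in WT, so JMML replicate 1 lay inside the WT range while the other JMML libraries lay above it. Of these 15 genes, 2 were called higher and 0 lower, and none was at 0 in all libraries of a group. A count of 2 is near the share of all genes called higher (12.4%). The list's median log2 fold change was 1.1502, and neither value was stable. Between 0 (without WT replicate 2) and 8 (without JMML replicate 1, or with no low-count filter) were called higher in other settings. The settings with the identifier letter, which rest on JMML replicate 3, are left out of this range. The median was 0.31 without JMML replicate 3 and 1.67 without WT replicate 2. Oas1a, an interferon-induced synthetase, was 1 of the 2 (log2 fold change 2.70 ± 0.54, adjusted p = 0.0127), and its call ended without WT replicate 2 (2.70, adjusted p = 0.0605). The part of interferon in the level of Fcgr1 was not tested.

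The activating receptors are known targets of the myeloid factor PU.1, and Fcgr1 also of interferon-gamma, so the promoters were searched for letters of such sites. The stretches shown are the 150 bases before the RefSeq start site (GRCm38.p6), read 5′ to 3′ on the strand of the gene, with motif matches in capitals. Inhibitory Fcgr2b is given for comparison.
Fcgr1, chr3:96293970-96294119, minus strand: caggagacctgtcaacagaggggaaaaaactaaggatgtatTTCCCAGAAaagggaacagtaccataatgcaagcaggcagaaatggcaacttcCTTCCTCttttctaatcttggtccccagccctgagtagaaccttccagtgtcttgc
Fcgr3, chr1:171059404-171059553, minus strand: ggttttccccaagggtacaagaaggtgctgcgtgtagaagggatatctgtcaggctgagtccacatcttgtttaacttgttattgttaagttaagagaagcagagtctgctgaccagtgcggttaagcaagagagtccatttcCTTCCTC
Fcgr4, chr1:171018776-171018925, plus strand: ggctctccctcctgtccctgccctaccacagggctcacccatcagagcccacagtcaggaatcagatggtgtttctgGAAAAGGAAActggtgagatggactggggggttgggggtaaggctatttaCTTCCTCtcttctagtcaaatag
Fcgr2b, chr1:170976072-170976221, minus strand: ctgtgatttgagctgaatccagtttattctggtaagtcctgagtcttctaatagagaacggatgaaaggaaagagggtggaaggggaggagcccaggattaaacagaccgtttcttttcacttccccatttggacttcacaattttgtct

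Each of the 3 activating receptor genes held the PU.1 core GAGGAAG on the opposite strand, read as CTTCCTC above. It began 56 bases before the start site in Fcgr1 and 23 in Fcgr4. Of the 2 start sites listed for Fcgr3 it began 7 bases before the one shown and 16 before the other. Fcgr1 alone of the 6 genes held the palindrome TTCNNNGAA of a gamma-interferon activated site, 109 bases before its start, and Fcgr4 alone held the interferon response core, GAAA repeated after 2 bases of any kind, 73 bases before its start. Each motif was searched on both strands of the full windows of 300 bases, from 250 bases before the start, and no match overlapped one of another motif (TTCNNNGAA reads alike on both strands). Of all 32851 windows in the table, 13.6% held GAGGAAG, 8.30% held TTCNNNGAA and 3.44% held the interferon response core. The windows of Fcgr2b, Fcer1g and Fcgrt held none of the 3. The RefSeq starts of Fcgr3 and Fcgr2b (171059403 and 170976071) lie inside their longer GENCODE genes. The windows of these genes do not reach the GENCODE starts at 171064935 and 170976547. A match is a description of letters, and binding was not measured.

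Fcgr4, an activating receptor of monocytes, macrophages and neutrophils, was also higher in JMML. It had 9.51, 9.37 and 8.31 CPM in WT replicates 1, 2 and 3 and 33.7, 21.4 and 13.8 CPM in JMML replicates 1, 2 and 3. The groups did not overlap, and within JMML the library with the highest Fcgr4 had the lowest Fcgr1. The log2 fold change was 1.34 ± 0.31 (2.53-fold, adjusted p = 0.0196). The call was kept in 13 of 17 other settings. It ended with the identifier letter as a covariate (0.60) and in the 4 libraries with the letter M alone (0.64), which both rest on JMML replicate 3. It also ended on leaving out WT replicate 2 (1.36, adjusted p = 0.0652) or WT replicate 3 (1.32, adjusted p = 0.0506).

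Markers of the cells that carry Fcgr4 varied over the same libraries. The summed level of 8 monocyte markers was 3285, 3219 and 2341 CPM in JMML replicates 1, 2 and 3 and between 1259 and 1396 CPM in WT, with 4 called higher and 0 lower. Of the 4 not called, Ace (−0.88) and Cx3cr1 (−0.37) were lower in every JMML library than in every WT library. Treml4 was at −0.08 and Csf1r at 0.41 on the log2 scale. The 8 neutrophil markers summed to 18564, 8845 and 13147 CPM in JMML and between 4318 and 8749 in WT, with 3 called higher and 0 lower. Most of each sum came from S100a8 and S100a9 (7567 and 9935 CPM in JMML replicate 1, 1658 and 2424 CPM in WT replicate 1). Of the 5 not called, Mmp9 (1.24) was higher in every JMML library than in every WT library. S100a9 (1.145), Retnlg (0.63), Ly6g (0.34) and Csf3r (0.04) had overlapping groups. The 8 macrophage markers summed to 386, 310.5 and 201 CPM in JMML and between 370 and 608 in WT, with 2 called higher and 5 lower. None of these markers was at 0 in all libraries of a group. The part of cell composition in the level of Fcgr4 was not tested.

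**Figure D2:**
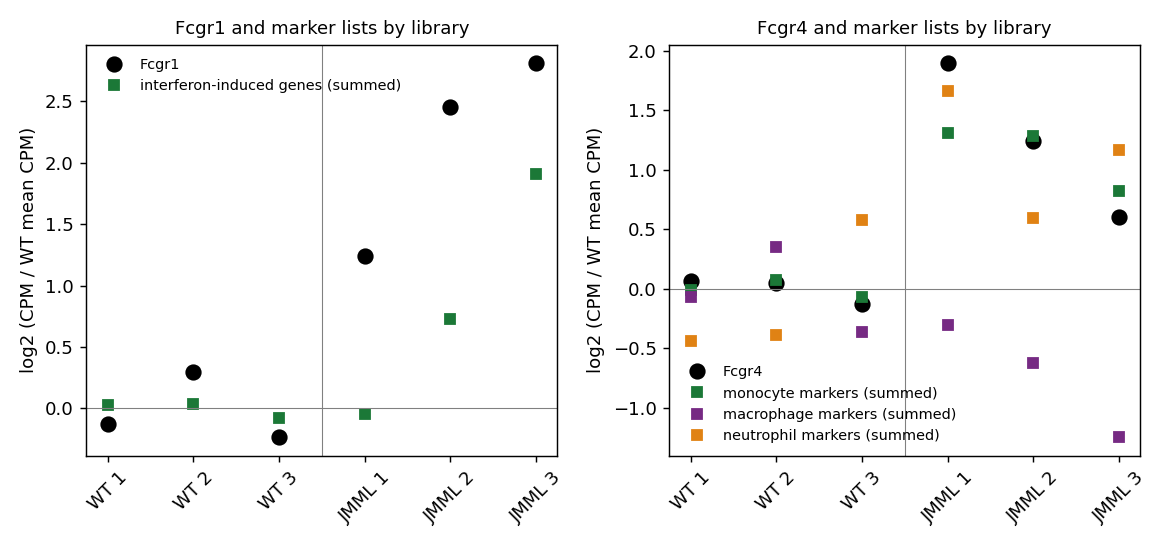
Level of Fcgr1 (left) and Fcgr4 (right), as black circles, and summed level of marker lists, as coloured squares, in each library on the log2 scale relative to the WT mean (replicates have no order). Fcgr1 and the interferon-induced list are both highest in JMML replicate 3, where Fcgr4 and the monocyte and macrophage lists are at their lowest within JMML.

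Fcgr3, the low-affinity activating receptor, was the most abundant of the receptor chains per length and changed with little spread. Its level was 92.4, 91.1 and 95.8 CPM in WT replicates 1, 2 and 3 and 181, 172 and 147 CPM in JMML replicates 1, 2 and 3. The gap between the groups was larger than the range within either. The log2 fold change was 0.84 ± 0.11 (1.79-fold, adjusted p = 0.00405), and it was called in all 17 other settings, between 0.65 and 0.95.

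Fcer1g, the signalling chain that the activating receptors share, had 92.4, 110.2 and 118 CPM in WT replicates 1, 2 and 3. It had 202, 208 and 176 CPM in JMML replicates 1, 2 and 3, all above WT. The log2 fold change was 0.87 ± 0.13 (1.83-fold, adjusted p = 0.00529) and was called in all 17 other settings, between 0.63 and 0.99. The lowest value came from removing the trend of the data with exon length. Fcer1g is short (874 bases of exon), and genes with 38 to 1567 bases of exon had a median log2 fold change of 0.17.

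Fcgr2b, the inhibitory receptor, rose by about as much as Fcgr3. It had 45.5, 41.6 and 41.1 CPM in WT replicates 1, 2 and 3 and 93.6, 69.3 and 66.5 CPM in JMML replicates 1, 2 and 3. The groups did not overlap, and JMML replicate 1 was the highest. The log2 fold change was 0.84 ± 0.15 (1.79-fold, adjusted p = 0.00936). Of the 17 other settings 16 kept the call, and it ended with the identifier letter as a covariate (0.64, adjusted p = 0.0765).

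Fcgr2b is also made by B cells and by sinusoidal endothelium, most of whose markers were called lower. All 8 B-cell markers were called lower, and their summed level was between 12.01 and 18.1 CPM in JMML and between 103 and 401 CPM in WT. Of the 8 endothelial markers 6 were called lower and 0 higher, with sums between 47.6 and 75.5 CPM in JMML and between 223 and 396 CPM in WT. Clec4g, a lectin of sinusoidal endothelium, had 0 counts in all 3 JMML libraries, and no B-cell marker was at 0 in all libraries of a group. Fcgr2b was thus higher in the libraries where markers of these cells were low, and which cells its transcripts came from was not tested.

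Fcgrt, the transport receptor, did not pass the test. Its level was 37.0, 36.9 and 39.8 CPM in WT replicates 1, 2 and 3 and 52.8, 55.7 and 35.6 CPM in JMML replicates 1, 2 and 3. JMML replicates 1 and 2 were above all WT libraries and JMML replicate 3 was below them. The log2 fold change was 0.34 ± 0.18 (adjusted p = 0.191). Without JMML replicate 3 it was called higher (0.54, adjusted p = 0.0336), and with the identifier letter as a covariate it was −0.09 (adjusted p = 0.740). Its light chain gene B2m, which also serves MHC class I, was higher (386, 472 and 430 CPM in WT replicates 1, 2 and 3, against 672, 840 and 790 CPM in JMML). B2m had a log2 fold change of 0.84 ± 0.14 (adjusted p = 0.00766).

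**Figure D3:**
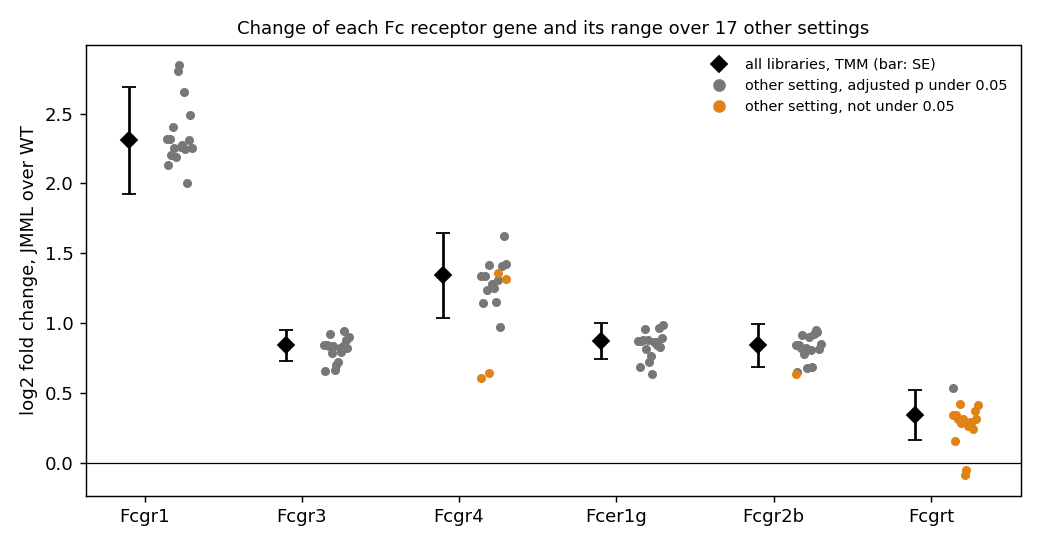
Log2 fold change of JMML over WT for each Fc receptor gene from all 6 libraries (black diamonds, bars are SE) and from 17 other settings (grey where the adjusted p was under 0.05, orange where it was not). Fcgr1, Fcgr3 and Fcer1g are grey throughout, 4 settings of Fcgr4 and 1 of Fcgr2b are orange, and Fcgrt crosses 0.

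Activating receptors were then weighed against the inhibitory one within each library, which needs no scaling between libraries. The ratios are not adjusted for the trend of the data with exon length. Fcgr2b has 5790 bases of exon, and the activating receptors have 1256 to 2589. Fcgr2b and Fcgr3, both at 0.84 in the main fit, had log2 fold changes of 0.90 and 0.72 with that trend removed. Fcgr4 and Fcgr1 stayed above Fcgr2b, at 1.151 and 2.26. The ratio of Fcgr3 to Fcgr2b in RPKM was 6.77, 7.31 and 7.77 in WT replicates 1, 2 and 3 and 6.46, 8.27 and 7.38 in JMML replicates 1, 2 and 3. The groups overlapped, and the difference in mean log2 ratio was 0.01 (2.86 ± 0.10 in WT and 2.87 ± 0.18 in JMML, SD, n = 3; exact two-sided permutation p = 0.90). The ratio of Fcgr4 to Fcgr2b was 0.964, 1.04 and 0.932 in WT and 1.66, 1.42 and 0.956 in JMML. JMML replicates 1 and 2 were above WT and JMML replicate 3 was within it, with a difference of 0.43 on the log2 scale (exact two-sided permutation p = 0.30).

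The ratio of Fcgr1 to Fcgr2b was 0.365, 0.536 and 0.375 in WT and 0.458, 1.43 and 1.91 in JMML replicates 1, 2 and 3. JMML replicates 2 and 3 were above all WT libraries and JMML replicate 1 was within the WT range, with a difference of 1.36 on the log2 scale (exact two-sided permutation p = 0.20). With the median coding transcript length the same ratios were 0.0959, 0.141 and 0.0984 in WT and 0.1202, 0.376 and 0.5003 in JMML, so Fcgr1 was above Fcgr2b in JMML replicates 2 and 3 by the exon union and below it by the coding length. The ratio of Fcgr4 to Fcgr2b was then between 0.245 and 0.437 and that of Fcgr3 to Fcgr2b between 2.22 and 2.85 over the 6 libraries. A change of the length used as divisor leaves the difference between the groups in each single ratio as it was. It does not remove the trend with exon length. Adjusted over these 3 ratios the p-values were 0.45 for Fcgr1, 0.90 for Fcgr3 and 0.45 for Fcgr4, and 3 against 3 libraries cannot give a p below 0.10. A shift of these ratios was therefore not shown, and a p above the threshold does not show that they were alike.

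Summed over the 3 activating receptors, the ratio to Fcgr2b was 8.10, 8.88 and 9.08 in WT replicates 1, 2 and 3 and 8.58, 11.1 and 10.2 in JMML replicates 1, 2 and 3. The 2 highest values were JMML libraries, but JMML replicate 1 lay within the WT range. The mean log2 ratio differed by 0.19, from 3.12 ± 0.09 in WT to 3.31 ± 0.19 in JMML. With the coding transcript length the summed ratio was 2.68, 2.93 and 3.02 in WT and 2.78, 3.60 and 3.29 in JMML, and the log2 difference was 0.16. How far the activating receptors exceeded Fcgr2b thus depends on the length used, and the groups overlapped with both. The ratio of Fcer1g to the summed activating receptors was 1.66, 1.98 and 2.08 in WT and 1.67, 1.79 and 1.71 in JMML, with overlapping groups. No test was run on these sums.

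**Figure D4:**
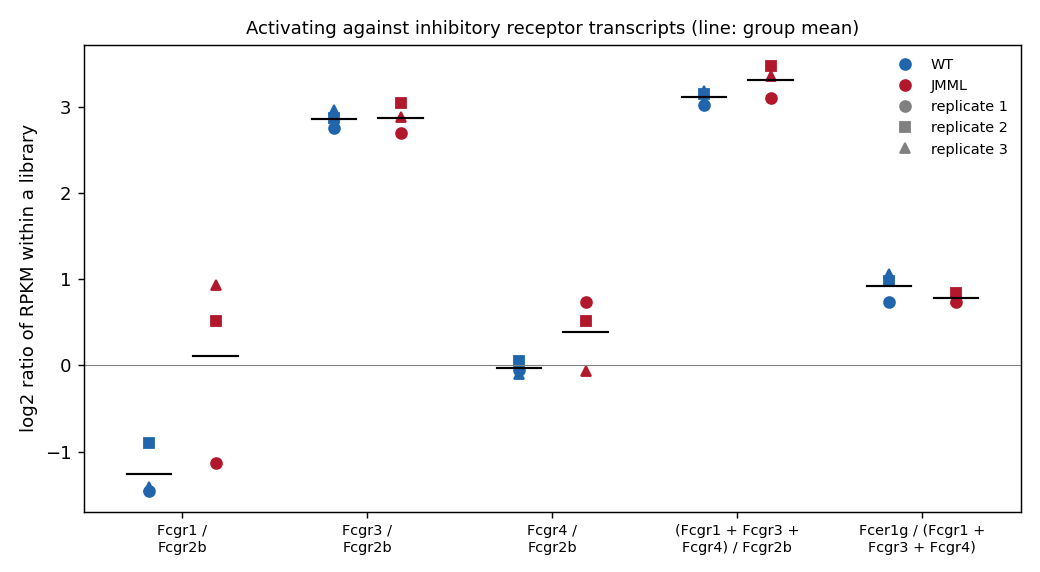
Log2 ratio of RPKM within each library (vertical axis) for each activating receptor against Fcgr2b, for their sum against Fcgr2b, and for Fcer1g against their sum, in WT (blue) and JMML (red), with lines at group means. The groups overlap in all 5 ratios, and the wide spread of Fcgr1 within JMML stands out.

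Part of the antibody genes were called lower in JMML, and none of those called was a heavy chain gene of immunoglobulin G. Of 10 antibody genes 7 were tested, and 5 were called lower and 0 higher (13.8% of all genes were called lower), with a median log2 fold change of −2.76. Igkc, the kappa light chain constant gene, had 5.35 ± 2.40 CPM in JMML and 55.5 ± 22.3 in WT (SD, n = 3; log2 fold change −3.38 ± 0.44). Jchain, which joins secreted antibodies, had a log2 fold change of −3.53 ± 0.40, Ighd of −3.93 ± 0.55 and Igha of −2.50 ± 0.44. Ighm, the heavy chain of immunoglobulin M, fell by 1.78 on the log2 scale (adjusted p = 0.0161). The call of Ighm ended with the identifier letter (−1.35, adjusted p = 0.130), in the libraries with M alone (−1.31, adjusted p = 0.152) and without JMML replicate 2 (−1.75, adjusted p = 0.0534). Ighg1, Ighg3 and Ighe did not pass the filter. Ighg2b and Ighg2c were tested and not called, so no heavy chain gene of immunoglobulin G, the ligand of Fcgr1 to Fcgr4, was called. Ighg2b was still lower in every JMML library than in every WT library (−2.76 ± 0.91, adjusted p = 0.0615). Ighg2c had overlapping groups (1.47 ± 1.39, adjusted p = 0.461).

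Among other Fc receptor genes, of B cells, mast cells and epithelia, 13 were listed and 10 were tested. Of these 1 was called higher and 4 lower, and the median log2 fold change was −0.15. Fcmr, the immunoglobulin M receptor of lymphocytes, had 185, 107 and 377 counts in WT replicates 1, 2 and 3 and 1, 2 and 6 counts in JMML (adjusted p = 0.00271). Fcer1a, the ligand-binding chain of the immunoglobulin E receptor, had a log2 fold change of −1.88 ± 0.45 (adjusted p = 0.0222), which lost its call in 6 of 16 other settings. Fcer2a, the low-affinity receptor for immunoglobulin E, had 14, 7 and 22 counts in WT and 3, 0 and 0 in JMML, and its call ended in 8 of 15 other settings. Fcrlb, a relative of the receptors, was the 1 called higher, at 36, 74 and 76 counts in JMML against 0, 3 and 7 in WT, and lost its call in 5 of 16 other settings. The count of 4 lower became between 1 and 3 in 10 settings, so few of these calls are firm.

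Of the signal chain below the activating receptors, part was higher. Among 24 genes from the Src kinases to the actin regulators, 9 were called higher and 4 lower, with a median log2 fold change of 0.46. Of all genes 12.4% were called higher and 13.8% lower, so the count of 4 lower is near the share over all genes. Lyn, a Src-family kinase that phosphorylates ITAMs, rose from 162, 185 and 206 CPM in WT to 358, 351 and 317 CPM in JMML (0.89 ± 0.13, adjusted p = 0.00474). Card9, an adaptor that links ITAM receptors to NF-κB, had a log2 fold change of 1.01 ± 0.09 and Lat2, a membrane adaptor, 0.97 ± 0.12. Syk itself had 262, 257 and 387 CPM in WT and 317, 327 and 312 CPM in JMML, and was not called (0.08 ± 0.18, adjusted p = 0.767). The 4 lower were Blnk, Lat and Plcg1, which serve antigen receptor signalling in B or T cells, and Sos1, a Ras exchange factor. Blnk had −3.51 ± 0.56, Lat −1.85 ± 0.33, Plcg1 −1.23 ± 0.20 and Sos1 −0.68 ± 0.16. With the identifier letter as a covariate 6 were called higher and 1 lower, where Blnk (−2.98, adjusted p = 0.0568) and Lat (−1.77, adjusted p = 0.0711) lost their calls, and in the libraries with M alone 7 were higher and 2 lower.

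The chain below the inhibitory receptor had 3 of 10 genes called higher and 0 lower, with a median of 0.23. Ptpn6, a phosphatase bound by ITIMs, had a log2 fold change of 0.87 ± 0.16 (adjusted p = 0.00999), Dok3, an adaptor, of 0.80 ± 0.15 and Inpp5d, the lipid phosphatase of Fcgr2b, of 0.63 ± 0.16 (adjusted p = 0.0251). The call of Inpp5d ended in 7 of 17 other settings, with library totals alone (0.46, adjusted p = 0.0725), the replicate block (0.64, adjusted p = 0.0688), the letter (0.54, adjusted p = 0.154), the libraries with M alone (0.57, adjusted p = 0.134) and when JMML replicate 2 (0.54), WT replicate 1 (0.66) or WT replicate 2 (0.53) was left out. Ptpn6 lost its call without WT replicate 2 (0.81, adjusted p = 0.0545), and Dok3 with the letter (0.71, adjusted p = 0.0690) and in M alone (0.75, adjusted p = 0.0783). The difference between the activating and inhibitory chains was not tested.

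Of 9 other inhibitory receptor genes of myeloid cells that were tested, 5 were called higher and 0 lower, with a median of 0.71. Cd300a, Cd200r1, Pilra and Sirpa were the 4 not called, at log2 fold changes from 0.12 to 0.66. Cd300lf had the largest change, from 24.2 ± 4.14 CPM in WT to 72.6 ± 16.0 in JMML (log2 fold change 1.59 ± 0.20). Clec12a had 0.80 ± 0.13 and Pirb, a receptor for MHC class I, 0.89 ± 0.15, of which Pirb lost its call with the letter (0.68, adjusted p = 0.0549). Siglece, a sialic acid receptor, had 0.71 ± 0.16 and lost its call without WT replicate 1 (0.68, adjusted p = 0.0562) or WT replicate 2 (0.66, adjusted p = 0.0812). Clec4a2 had 1.001 ± 0.24 and lost its call in 5 of 17 other settings.

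Of 8 receptors known to pair with Fcer1g, 2 were called higher, 1 lower and 5 in neither direction. Of all genes 12.4% were called higher and 13.8% lower, so the count of 1 lower is near the share over all genes. Csf2rb, the common beta chain of the receptors for GM-CSF and interleukin 3, rose from 145, 132 and 136 CPM in WT to 232, 272 and 254 CPM in JMML (0.87 ± 0.11, adjusted p = 0.00355). Gp6, the collagen receptor of platelets, had 258, 150 and 683 counts in WT and 6, 3 and 0 in JMML (adjusted p = 0.00359). Oscar was the other called higher, and its call ended in 10 of 17 other settings. Clec4e, the lectin Mincle, had 4.78, 8.91 and 5.88 CPM in WT and 26.7, 15.0 and 7.83 CPM in JMML, with overlapping groups (adjusted p = 0.0617). Of the other ITAM chains, Tyrobp (DAP12) of myeloid and natural killer cells was higher (1.23 ± 0.23, adjusted p = 0.0106) and Cd247, the zeta chain of T cells and natural killer cells, was lower (−1.83 ± 0.33). Both lost their calls with the letter (0.90 and −1.53) and in M alone (0.93 and −1.50). Hcst, an adaptor without an ITAM of its own, was listed with Tyrobp and Cd247 as an ITAM adaptor. It was called higher (0.78 ± 0.22, adjusted p = 0.0370) and lost its call in 9 of 17 other settings. As the middle value of the list, Hcst gives the median of the ITAM adaptors wherever that is shown.

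**Figure D5:**
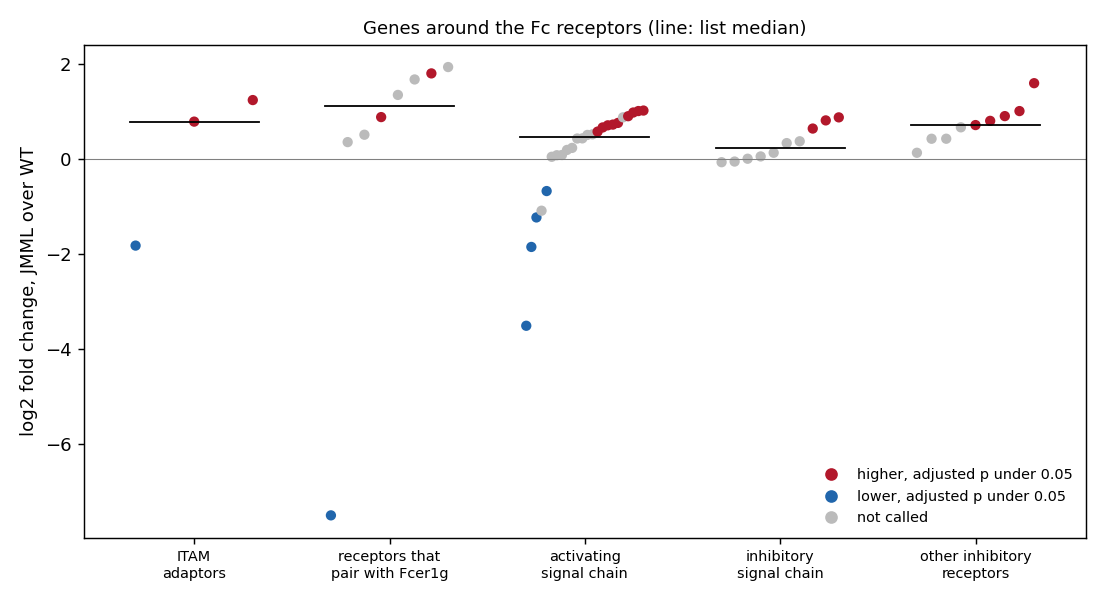
Log2 fold change of JMML over WT for each tested gene (points) of 5 lists around the Fc receptors, coloured by call at an adjusted p under 0.05, with lines at list medians. The inhibitory chain and the other inhibitory receptors hold no gene called lower, and the lowest point, Gp6, is a fitted value from at most 6 counts in a JMML library.

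Other cell types, whether or not they carry these receptors, were checked by their markers. Of 8 mast cell and basophil markers 7 were tested and 4 were called lower (Tpsb2 was at 0 in WT), with sums between 236 and 286 CPM in JMML and between 394 and 512 CPM in WT. Of 7 natural killer cell markers 0 were called, with sums between 17.97 and 41.5 CPM in JMML and between 18.2 and 24.6 CPM in WT. Of 8 dendritic cell markers 4 were called higher and 2 lower, and their sums were between 180 and 202 CPM in JMML and between 95.6 and 110 CPM in WT. Granulocyte-monocyte progenitor markers had 5 of 6 called higher. Eosinophil and plasma cell markers had 0 called, T-cell markers 6 of 6 lower, platelet markers 6 of 6 lower and erythroid markers 4 of 6 lower. Hepatocyte markers were near 0, with Alb at 0 counts in all libraries. The part of these shifts in the Fc receptor levels was not tested.

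The genes whose pattern over the 6 libraries was most like each Fc receptor gene were found by the root mean square difference between log2 CPM profiles, each centred on its own mean. They were sought among 10255 named protein-coding genes of moderate or high level. Fcgr1 was nearest to Parp12 (0.18), Ifi211 (0.18) and Slfn1 (0.27). Fcgr4 was nearest to Ap1s2 (0.11), Cmklr1 (0.15) and Cd83 (0.16). Fcgr3 was nearest to Tmem251 (0.04), Mis18a (0.04) and Slc35a5 (0.05), and Fcgr2b to Ssr4 (0.06), Mrpl33 (0.07) and Mis18a (0.08). Fcer1g was nearest to the kinase gene Lyn (0.04), then Bin3 (0.07) and Galk2 (0.07). Fcgrt was nearest to Mpc1 (0.04), Rnf215 (0.04) and the growth factor receptor gene Csf1r (0.05). Among the members themselves Fcgr3 and Fcer1g were the closest pair (0.10) and Fcgr1 and Fcgrt the farthest (1.14). These profiles share the libraries and the group difference, so the values describe likeness only.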

How the data were processed

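The deposited files, 1 per sample, list unnormalized counts by Ensembl identifier. Per the labels' protocols, ribosomal RNA was removed and strand kept in library making. The submitters' processing notes name, with no role, the build GRCm38 and the tools StringTie 1.3.3b, DESeq2 1.22.2, STAR 2.5.3a, R 3.5.0, Picard 2.0.1 and bcl2fastq 2.18.0.12. How genes were counted, and how strand, mates and multi-mapped reads were handled, was not stated. Even numbers made up 51.6% to 58.8% of the counts of 1 to 20 in a library, so mates may have been counted apart. No 2 libraries were copies.

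Of 46078 identifiers 98.2% matched GENCODE vM21. The test was that of edgeR 4.0.16 under R 4.3.3 (filterByExpr, TMM, quasi-likelihood F test, Benjamini-Hochberg over 18097 genes, threshold 0.05). The standard error is the absolute log2 fold change over the square root of F. Ratios within a library used RPKM with 0.5 counts added and exact permutation tests (scipy 1.17.1). In counts simulated for JMML against WT on 17761 genes, 46% of 50 genes with a 2-fold change were recovered, 6% at 1.5-fold and 86% at 4-fold. Only 50 genes were changed at each fold, whereas 4737 genes were called in the data. The Benjamini-Hochberg adjustment depends on how many genes change, so these shares need not hold for the data. The 17 alternatives covered scaling (DESeq2 size factors, library totals), test (DESeq2 1.42.0, limma-voom 3.58.1), low-count filter, replicate block, identifier letter (as covariate, or M alone), exon length, thinning to equal totals, and each library left out. Median coding transcript length, for levels and ratios, was added after the data were seen. Promoters came from RefSeq, where all 6 genes matched by symbol. Protein sequences were not analysed here.

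The 6 genes and the 25 gene lists were chosen with earlier results of these data known, so they are not independent support. Genes named beside the 6 are up to 4 of each pathway list with the smallest p plus called changes of 2-fold or more, up to 3 of each marker list, and the 3 nearest patterns of each. Syk, Sos1, Alb, Tpsb2, Ighg2b, Ighg2c, Cd300a, Cd200r1, Pilra and Sirpa fall outside that rule and were named after their values were seen. The same holds for Ace, Cx3cr1, Treml4, S100a9, Mmp9, Retnlg, Ly6g and Csf3r. Lilrb4a had no identifier in the tables. A gene that the rule names is not reported here.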

Additional observations from a re-analysis of the deposited data

How the results depend on the processing

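Fcgr1, Fcgr3 and Fcer1g were called higher in all 17 other settings. Fcgr4 lost its call with the identifier letter (0.60), in the libraries with M alone (0.64) and without WT replicate 2 or WT replicate 3 (0.97 to 1.63 over libraries left out). Fcgr2b lost it with the letter (0.64). The settings with the letter and with M alone both draw the group difference from JMML replicate 3. Fcgrt was −0.090 with the letter and −0.053 in M alone, and over libraries left out ran from 0.24 to 0.54, the last called. The genes called, 4737 in all, became 2809 with the replicate block, 2219 with the letter, 2310 in M alone and 2203 to 4003 with a library left out. With library totals 27.0% of calls were higher in place of 47.4%.

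The log2 ratio of Fcgr3 to Fcgr2b ran from −0.074 to 0.10 with a library left out, and was below 0 without JMML replicate 2 (−0.074) and without WT replicate 1 (−0.039). That of Fcgr4 to Fcgr2b was −0.033 in M alone. Pathway list medians moved by more than the replicate spread in these settings: antibody genes −3.69 without JMML replicate 3 (−3.69 to −2.40 over libraries left out), other Fc receptors −0.86 with the stricter filter, 0.52 after thinning (fewer genes tested in both) and 0.15 without WT replicate 3 (−0.27 to 0.15 over libraries left out), B2m 0.66 with library totals and 0.60 without the length trend, ITAM adaptors 0.47 and receptors that pair with Fcer1g 0.33 with the letter and 0.51 and 0.37 in M alone, and with library totals the activating chain 0.28 and the inhibitory chain 0.043. Of marker lists 7 moved, in 12 cases in all: with the letter and in M alone monocyte (0.18 and 0.22), macrophage (−2.96 and −2.92), endothelial (−3.83 and −3.79) and interferon-induced genes (2.10 and 2.14), in M alone progenitor markers (0.95), and with a library left out neutrophil (1.64), interferon-induced (0.31) and hepatocyte markers (7.16, 1 gene). Of natural killer markers, Eomes (−0.56) was 0.061 with the letter, 0.10 in M alone and −0.97 to 0.010 over libraries left out (0.010 without WT replicate 2), and Ncr1 (0.50) was −0.28 to 0.93 (−0.28 without JMML replicate 3). Unless stated, the cause was not tested.

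Same-numbered replicates did not deviate together (correlations of −0.09, 0.05 and −0.09 over 11353 genes), so no pairing by replicate number was seen. Deviations were taken within groups of 3 libraries, so these correlations cannot exclude a pairing. With the replicate block the 5 called members stayed called, from 0.82 (Fcgr2b) to 2.19 (Fcgr1), and the mean ratio differences are the same with it by construction.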

Other observations

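The make-up of the receptor pool differed between libraries. Of the summed RPKM of Fcgr1, Fcgr3, Fcgr4 and Fcgr2b, Fcgr3 took 74.4%, 73.9% and 77.1% in WT replicates 1, 2 and 3 and 67.4%, 68.2% and 65.7% in JMML replicates 1, 2 and 3, lower in all 3 JMML libraries. Fcgr1 took 4.78%, 11.8% and 16.95% in JMML replicates 1, 2 and 3 and between 3.71% and 5.42% in WT, and Fcgr4 took 17.3%, 11.7% and 8.497% in JMML and between 9.24% and 10.6% in WT. The inhibitory Fcgr2b took between 8.25% and 10.4% in JMML and between 9.92% and 10.99% in WT. With coding transcript lengths, Fcgr2b took 23.8 ± 2.39% in JMML and 25.8 ± 1.197% in WT (SD, n = 3). No test was run on these shares.

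Complement receptors, which take up opsonized particles alongside Fc receptors, were higher in part. Of 9 tested genes of complement receptors and C1q, 3 were called higher and 0 lower. Itgax rose from 13.8 ± 1.79 CPM in WT to 45.6 ± 4.56 in JMML (log2 fold change 1.72 ± 0.15), and Itgb2, the beta chain shared by both integrin complement receptors, had 0.94 ± 0.16. Itgam had 0.94 ± 0.22 and lost its call with the letter (0.94), in M alone (0.97) and without WT replicate 1 (0.91) or WT replicate 2 (0.78). The list median of 0.52 was −0.32 with the letter, −0.28 in M alone and −0.29 without JMML replicate 1, where 3, 4 and 1 genes were called lower, and −0.18 with limma-voom and with the replicate block.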
